A study of Mus musculus with 23 samples.

Results

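The genes described here are 10 genes of the cardiac contractile apparatus and the cardiac natriuretic peptides, chosen by symbol from the 23284 genes of the deposited expression table. They are the myosin light chain genes Myl7, Myl4 and Myl1, the troponin genes Tnnt2, Tnni3 and Tnnc1, the cardiac actin gene Actc1, the myosin heavy chain gene Myh6, and the natriuretic peptide genes Nppa and Nppb. Their levels and the balance between related isoforms were followed in 5 single HL-1 cardiomyocytes (HL1cm1 to HL1cm5) and in an HL-1 population control (HL1cm-PC). The study compared these cells, as a negative control, with 16 single mouse bone marrow mesenchymal stem cells (mMSCs) and their population control (mMSC-PC). No sample was given a drug or a genetic change by the study. The mMSCs were bought, came from male mice, were used at passages 6 to 11, and were grown on gelatin in alpha-MEM with fetal bovine serum, nonessential amino acids and glutamine. The HL1cm were used at passages 70 to 85 and were grown on fibronectin and gelatin in Claycomb medium with fetal bovine serum, penicillin-streptomycin, norepinephrine and glutamine. The strain label of every sample, HL1cm included, was C57BL/6J. Before capture in the same microfluidic device as the mMSCs, the HL1cm were stained with a green cytoplasmic dye. A population control held the bulk population and was carried through the same process.

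HL-1 is a dividing and contracting mouse line derived from an atrial tumour lineage, in which the SV40 large T antigen was expressed under the promoter of the atrial natriuretic factor gene, the gene now called Nppa. It is a model of transformed atrial muscle cells, and the HL1cm here are cells of that line, not of a heart. In heart muscle the sarcomere slides thick filaments of myosin along thin filaments of actin. Each myosin heavy chain carries a regulatory and an essential light chain, and the troponin complex on the thin filament makes contraction depend on calcium. Most of these proteins come in related forms encoded by different genes, used in the atrium or the ventricle and in the fetal or the adult heart. Atrial muscle uses the light chains encoded by Myl7 and Myl4 and secretes the peptide hormone encoded by Nppa.

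The unit was FPKM, a fragment count divided by exon length and by the mapped fragments of the library, so that levels of different genes can be set side by side. No source used here says that cells of a type came from separate cultures, so each cell type counted as 1 sample, no test was possible between cell types, and every SD is a spread between single cells. A level of 1 FPKM or more was reached by 6428 to 7010 genes in an HL1cm, 5178 to 7241 in an mMSC, 9881 in HL1cm-PC and 9625 in mMSC-PC. The number of fragments in a library cannot be read from FPKM values. The smallest values that long genes with a single transcript took, the 5th percentile of FPKM times length in kilobases, lay at 2.98 to 4.88 in the HL1cm, 5.05 in HL1cm-PC and 2.55 to 12.2 in the mMSCs. A value of 0 is reported as listed at 0, since the table does not separate an absent transcript from one that was missed. Genes shorter than 200 bases held 46.4%, 53.6% and 73.0% of all FPKM in HL1cm1, HL1cm3 and HL1cm5, against 1.62% and 2.29% in HL1cm2 and HL1cm4.

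The markers of the labelled cell type were present. Of 11 cardiomyocyte markers (Ttn, Actn2, Ryr2, Mybpc3, Des, Nkx2-5, Gata4, Mef2c, Tbx5, Csrp3 and Ldb3), all 11 were above 0 in at least 1 HL1cm and 8 in all 5. Their summed level was 272 to 464 FPKM in the HL1cm and 0 to 1.64 FPKM in the mMSCs. Of 10 mesenchymal markers, 8 were listed at 0 in all 6 HL1cm libraries, among them Col1a2, Pdgfrb and Ly6a. Thy1, Dcn and Lum, also among the 8, had no value above 0 in any of the 23 libraries. These 3 cannot separate the cell types. The summed level of the 10 markers was 0 to 7.61 FPKM in the HL1cm, against 652 to 4913 FPKM in the mMSCs. Of 9 skeletal muscle markers, 7 were listed at 0 in all 6 HL1cm libraries, Myog, Myod1 and Ckm included. The exceptions were Tnni2, a fast skeletal troponin I gene, at 73.3 FPKM in HL1cm5, and Tnnt3. The macrophage markers were listed at 0 in all 5 cells, and the 4 endothelial markers summed to 0 to 13.8 FPKM. The chamber markers were less complete. Of the 4 atrial markers, the transcription factor gene Nr2f2 was above 0 in all 5 cells, at 2.62 to 33.7 FPKM, but stood at a median of 27.5 FPKM in mMSCs, and Bmp10 was listed at 0 in all 6 HL1cm libraries. Sln, an atrial regulator of the calcium pump, stood at 48.2 FPKM in HL1cm1 and 26.0 FPKM in HL1cm5 and was listed at 0 in the other 3 cells. Mybphl, a myosin-binding protein gene, stood at 25.2 FPKM in HL1cm2 and 75.7 FPKM in HL1cm3 and was listed at 0 elsewhere among the cells. The ventricular transcription factor genes Irx4 and Hey2 were listed at 0 in all 6 HL1cm libraries.

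Nearly all of the set was high in HL1cm and at or near 0 in mMSCs. Of the 10 genes, 9 were 4-fold or more higher in HL1cm than in mMSCs, by the difference of the mean log2 FPKM with values under 1 FPKM set to 1. Nppb was the exception. Among all 13543 genes that reached 1 FPKM in any of these cells, 1106 (8.17%) were 4-fold or more higher in HL1cm and 1039 were 4-fold or more lower, so that 51.6% of these genes were higher. That share was 41.4% after rescaling every library to the same sum (842 higher, 1191 lower). The median difference over the 10 genes was 9.91 on the log2 scale, and over all genes tested it was -0.08. Every HL1cm was above every mMSC for 7 of the 10, all but Tnnc1, Nppa and Nppb, against 210 of 13543 genes (1.55%). Without HL1cm3 the count was 8, with Tnnc1 added. In the order of all differences Myl7 was at place 1, Tnni3 at 2, Myl1 at 3, Myl4 at 5, Actc1 at 6, Tnnt2 at 7, Myh6 at 30, Tnnc1 at 46 and Nppa at 169. The gene at place 4 was Fabp3, which encodes the heart fatty acid-binding protein and was looked up after its values were seen.

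**Figure D1:**
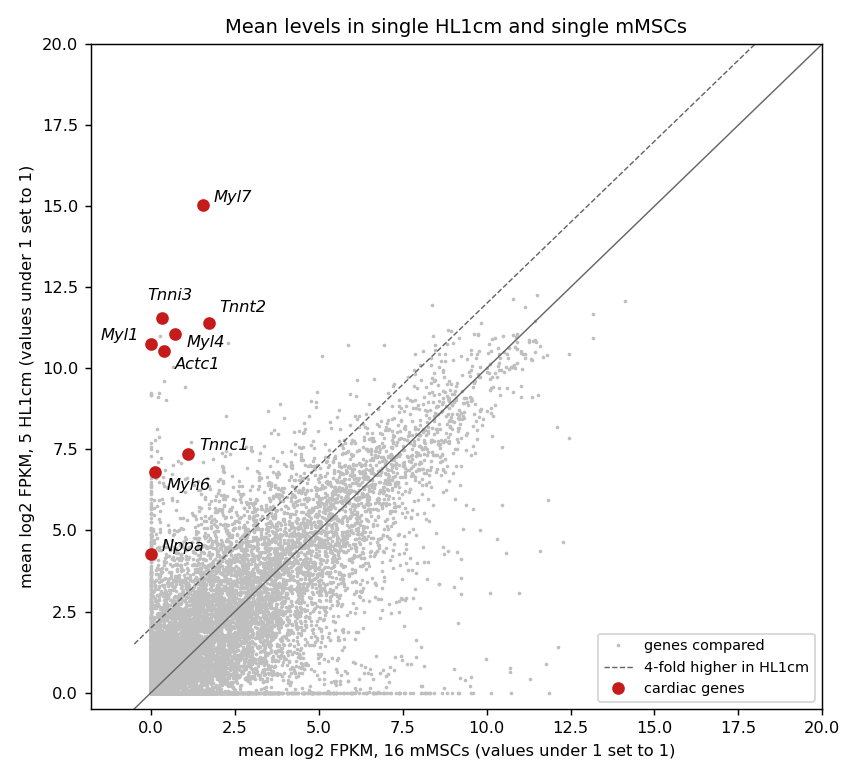
Mean log2 FPKM of each of the 13543 genes compared (grey) in 16 mMSCs (horizontal axis) and in 5 HL1cm (vertical axis), with values under 1 FPKM set to 1. The 9 cardiac genes in red, from Myl7 at a difference of 13.50 to Nppa at 4.27, lie above the dashed line that marks a 4-fold higher mean in HL1cm, and Nppb is not drawn because it was listed at 0 in every cell.

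The population controls, 1 library each, held the same direction for all 10 genes. Each was 4-fold or more higher in HL1cm-PC than in mMSC-PC, Nppb included, against 2265 of 11509 genes (19.7%). In mMSC-PC only Actc1 was above 0, at 2.80 FPKM. Single mMSCs held traces. Of the 160 values of these genes in the 16 mMSCs, 24 were above 0, in 14 cells, with at most 4 of the genes in a cell. The summed level was 0 to 65.4 FPKM in an mMSC, against 34477 to 61465 FPKM in an HL1cm. The highest trace was Myl7 at 65.4 FPKM in mMSC9, and Myl7 was above 0 in 5 mMSCs at 3.06 to 5.65 times the smallest value expected for its length there. Tnnt2 was above 0 in 6 mMSCs, with at most 40.8 FPKM in mMSC13. Over the 24 values this ratio to the smallest expected value ran from 1.63, for Actc1 in mMSC6, to 15.8, for Tnnt2 in mMSC13. Myl1, Nppa and Nppb were listed at 0 in all 16 mMSCs and in mMSC-PC.

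**Figure D2:**
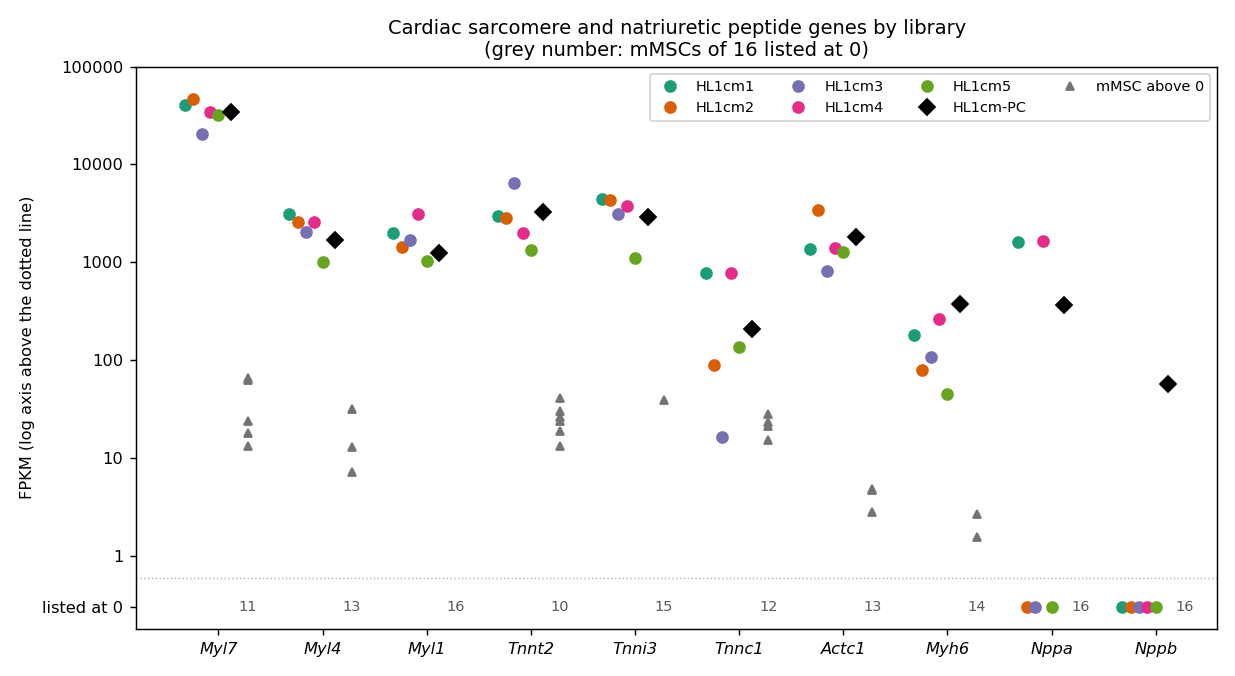
FPKM of each gene (log axis, with a separate level for values listed at 0) in HL1cm1 to HL1cm5 (coloured points), HL1cm-PC (black diamond) and those mMSCs in which the gene was above 0 (grey triangles), with the number of the 16 mMSCs listed at 0 in grey. Myl7 stands apart at 20292 to 46701 FPKM, Tnnc1 is spread from 16.4 to 780 FPKM, Nppa is above 0 in 2 cells only, and Nppb is above 0 in HL1cm-PC alone.

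The regulatory light chain gene of the atrium, Myl7, was the most abundant of the set in every HL1cm library. It is gene 17898 of RefSeq and lies on chromosome 11 at 5896637 to 5898782 (GRCm38, the assembly that mm10 names). Its level was 40223 FPKM in HL1cm1, 46701 in HL1cm2, 20292 in HL1cm3, 34366 in HL1cm4, 31995 in HL1cm5 and 34649 in HL1cm-PC. All 6 libraries lay within a range of 2.30-fold, and the highest mMSC stood at 65.4 FPKM. This range is by FPKM as deposited, depends on library scaling, and was not recomputed under another scaling. Among all genes Myl7 was at place 1 in HL1cm4 and HL1cm-PC, 2 in HL1cm2, 3 in HL1cm1 and HL1cm5, and 4 in HL1cm3. It made up 58.9% to 84.4% of the summed FPKM of the 10 genes in the cells and 74.3% in HL1cm-PC. The summed FPKM of the set was 2.03% to 7.97% of the total FPKM of a cell, and 4.44% to 8.11% of the total over genes of 200 bases or more. In the log2 mean, Myl7 was above the next gene, Tnni3, by 3.48 ± 0.81 (SD, 5 cells), and it was the higher of these in 5 of 5 cells.

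The balance of regulatory light chains was far on the atrial side. Myl2, the ventricular counterpart of Myl7, stood at 69.6 FPKM in HL1cm1, 78.2 in HL1cm2, 101 in HL1cm4, 31.1 in HL1cm5 and 58.0 in HL1cm-PC, and it was listed at 0 in HL1cm3 and in every mMSC. Myl7 exceeded Myl2 by 341-fold to 1028-fold in the 4 cells with both, a log2 difference of 9.20 ± 0.65 (SD), and by 598-fold in HL1cm-PC. Myl2 thus made up at most 0.292% of the pair in any cell. The coding transcripts of Myl7 and Myl2 shared no stretch of 75 bases, the read length.

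Myl7 was the gene of highest level, and Nppa was above 0 in some cells only. Tnnt2 and Tnnc1, both troponin genes, ranged 4.82-fold and 47.5-fold between the HL1cm. The 250 bases before the annotated start are printed here for Myl7, Tnnt2, Tnnc1 and Nppa. They come from RefSeq on GRCm38.p6, where all 10 genes were matched, are written 5′ to 3′ on the strand of the gene, and overlap no exon of the GENCODE M21 annotation. Myl7 is on the minus strand at chr11:5898783-5899032. The others are on the plus strand, Tnnt2 at chr1:135836084-135836333, Tnnc1 at chr14:31208062-31208311 and Nppa at chr4:148000472-148000721. The Tnnt2 window belongs to the upstream one of the starts searched for this gene. Its last bases lie inside the RefSeq gene, which begins at 135836315. Capitals mark matches to 6 motifs searched on both strands, which are the TATA motif TATAAA, the GATA factor motif, either AGATAA or AGATAG or the same with T in the first place, the TEAD motif CATTCC, the NKX2-5 motif TNAAGTG, and the CArG box and the MEF2 site by their usual consensus.
Myl7: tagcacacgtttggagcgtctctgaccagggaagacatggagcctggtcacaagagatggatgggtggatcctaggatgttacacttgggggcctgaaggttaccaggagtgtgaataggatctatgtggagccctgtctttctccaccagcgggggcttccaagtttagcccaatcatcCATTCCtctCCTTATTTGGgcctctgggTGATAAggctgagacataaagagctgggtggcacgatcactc
Tnnt2: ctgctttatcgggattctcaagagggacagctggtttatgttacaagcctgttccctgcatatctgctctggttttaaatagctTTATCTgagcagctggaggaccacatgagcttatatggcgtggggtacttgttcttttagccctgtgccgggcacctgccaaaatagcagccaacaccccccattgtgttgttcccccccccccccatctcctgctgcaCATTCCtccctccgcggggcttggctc
Tnnc1: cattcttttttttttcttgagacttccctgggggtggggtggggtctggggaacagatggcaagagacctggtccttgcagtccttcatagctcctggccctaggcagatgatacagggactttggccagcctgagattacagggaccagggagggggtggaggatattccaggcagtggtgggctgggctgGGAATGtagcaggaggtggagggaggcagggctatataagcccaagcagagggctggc
Nppa: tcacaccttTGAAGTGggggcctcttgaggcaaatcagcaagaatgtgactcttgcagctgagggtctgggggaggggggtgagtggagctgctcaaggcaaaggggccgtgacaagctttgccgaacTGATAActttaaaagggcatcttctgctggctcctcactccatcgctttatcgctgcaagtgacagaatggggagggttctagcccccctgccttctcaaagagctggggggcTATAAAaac
The Myl7 window held a CArG box that began 61 bases before the start, a CATTCC 70 bases before it and a TGATAA 42 bases before it. The Nppa window held a TATAAA that began 9 bases before the annotated start, a GATA motif 122 bases before it and a match to the NKX2-5 motif 241 bases before it. The Tnnt2 window held a GATA motif and a CATTCC, and the Tnnc1 window a CATTCC on the other strand. None of the marked matches overlapped another. A CArG box was found before Myl7 and Actc1, 2 of the 10 genes, against 1.47% of all 32851 promoter windows of the same length. A GATA motif was found before 6 of the 10 against 26.5% of windows, and CATTCC before 6 of the 10 against 12.6%. TATAAA was found before Myl1, Nppa and Nppb against 12.4% of windows, TNAAGTG before Nppa alone against 10.1%, and the MEF2 site before none against 0.508%. These are matches of letters and not measured binding.

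The essential light chain genes Myl4 and Myl1 were at like levels, and the ventricular form Myl3 was at or near 0. Myl4 encodes the atrial essential light chain, which is also made in fetal ventricle and fetal skeletal muscle, and lies on chromosome 11 at 104546017 to 104587215. It stood at 3088 FPKM in HL1cm1, 2608 in HL1cm2, 2050 in HL1cm3, 2570 in HL1cm4, 1015 in HL1cm5 and 1693 in HL1cm-PC. The other 4 cells lay at 2050 FPKM or above and HL1cm5 lay under them. Myl1 encodes the essential light chain of fast skeletal muscle, is also known from embryonic muscle, and lies on chromosome 1 at 66924295 to 66947932. It stood at 2005 FPKM in HL1cm1, 1443 in HL1cm2, 1696 in HL1cm3, 3118 in HL1cm4, 1022 in HL1cm5 and 1248 in HL1cm-PC. Myl4 was the higher of the pair in 3 of 5 cells, with a ratio of Myl4 to Myl1 of 0.824 to 1.81 and a log2 difference of 0.29 ± 0.46 (SD, 5 cells), which is within the spread between cells. Myl3 was listed at 0 in 4 cells and in HL1cm-PC. In HL1cm4, the cell in which it was above 0 at 102 FPKM, Myl4 was 25.3-fold higher. HL1cm4 was also the cell of highest Myl1 and Myl2.

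Troponin T was the cardiac form in all 5 cells. Tnnt2 encodes the subunit that ties the troponin complex to tropomyosin and lies on chromosome 1 at 135836315 to 135852268. It stood at 2988 FPKM in HL1cm1, 2807 in HL1cm2, 6403 in HL1cm3, 1979 in HL1cm4, 1327 in HL1cm5 and 3258 in HL1cm-PC. Tnnt2 was the single gene of the set whose highest cell was HL1cm3. The slow and fast skeletal counterparts, Tnnt1 and Tnnt3, were listed at 0 in all 5 cells and stood at 49.3 FPKM and 9.25 FPKM in HL1cm-PC, 66.1-fold and 352-fold below Tnnt2.

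Troponin I was a mixture of the adult cardiac and the fetal forms. Tnni3, the inhibitory subunit of the adult heart, lies on chromosome 7 at 4518305 to 4522718. It stood at 4450 FPKM in HL1cm1, 4326 in HL1cm2, 3089 in HL1cm3, 3732 in HL1cm4, 1104 in HL1cm5 and 2942 in HL1cm-PC. HL1cm5 was again the lowest. Tnni1, the slow skeletal form that is also the main form of the fetal heart, stood at 1993 FPKM in HL1cm1, 193 in HL1cm2, 2302 in HL1cm3, 1765 in HL1cm4, 842 in HL1cm5 and 1188 in HL1cm-PC. Its lowest cell was HL1cm2, a cell of high Tnni3. Tnni3 was the higher of the pair in 5 of 5 cells, by 1.31-fold to 2.23-fold in HL1cm1, HL1cm3, HL1cm4 and HL1cm5, by 22.4-fold in HL1cm2 and by 2.48-fold in HL1cm-PC. The log2 difference was 1.51 ± 1.70 (SD, 5 cells) and 0.76 without HL1cm2. As a share of the pair, Tnni1 made up 4.27% in HL1cm2 and 30.9% to 43.3% in the other 4 cells. Tnni1 was itself 4-fold or more higher in HL1cm than in mMSCs, at place 8 of all differences. The coding transcripts of Tnni3 and Tnni1 shared no stretch of 75 bases. Each troponin I gene lies near a troponin T gene on the chromosome, Tnni3 2329 bases from Tnnt1 with no coding gene between them, and Tnni1 25325 bases from Tnnt2 with Lad1 between them.

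Tnnc1 was the most uneven of the 8 genes above 0 in every HL1cm. It encodes the calcium-binding subunit of slow skeletal and cardiac muscle and lies on chromosome 14 at 31208312 to 31211729. Its level was 776 FPKM in HL1cm1 and 780 in HL1cm4, 138 in HL1cm5, 89.3 in HL1cm2, 16.4 in HL1cm3 and 211 in HL1cm-PC. The highest cell was 47.5-fold above the lowest, and the value in HL1cm3 lay within the range of the traces in 4 mMSCs, 15.2 to 28.3 FPKM. In HL1cm3 the Tnnt2 level was thus the highest and the Tnnc1 level the lowest of the 5 cells. Tnnc2, the fast skeletal form, was listed at 0 in all 5 cells and stood at 60.6 FPKM in HL1cm-PC, where Tnnc1 was 3.48-fold higher.

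**Figure D3:**
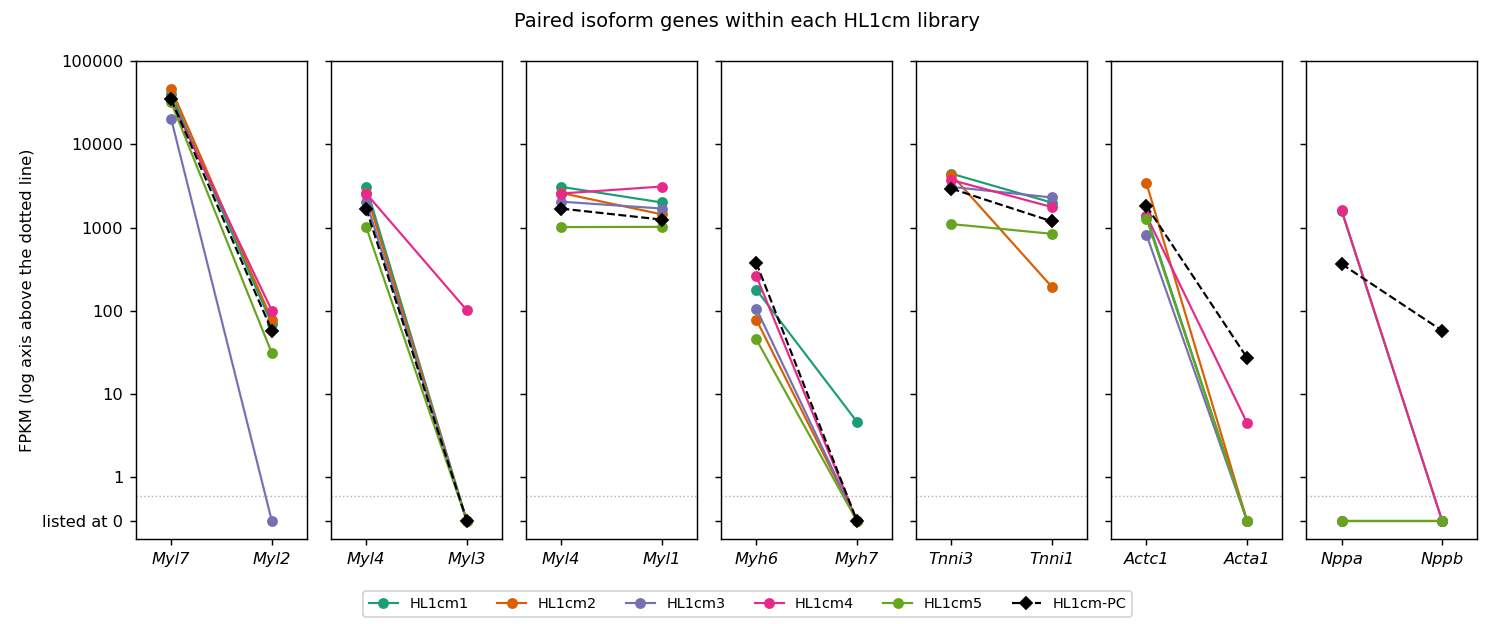
FPKM (log axis, with a separate level for values listed at 0) of paired isoform genes, joined by a line within each HL1cm library and by a dashed line in HL1cm-PC. The lines for Myl7 and Myl2, Myh6 and Myh7, and Actc1 and Acta1 fall steeply in every library, those for Myl4 and Myl1 are near level, and HL1cm2 stands apart for Tnni3 and Tnni1 with a ratio of 22.4.

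Actin of the thin filament was the cardiac form, with almost none of the skeletal form. Actc1, the main actin of the heart sarcomere, lies on chromosome 2 at 114047282 to 114052875. It stood at 1385 FPKM in HL1cm1, 3413 in HL1cm2, 823 in HL1cm3, 1398 in HL1cm4, 1284 in HL1cm5 and 1819 in HL1cm-PC, and reached 4.82 FPKM at most in an mMSC. HL1cm2 was the highest cell and HL1cm3 the lowest. Acta1, the skeletal form, was above 0 in HL1cm4, at 4.50 FPKM, and in HL1cm-PC, at 27.3 FPKM, where Actc1 was 310-fold and 66.7-fold higher. Acta1 was higher in mMSC-PC than in HL1cm-PC, at 41.2 FPKM. The smooth muscle actin gene Acta2, one of the smooth muscle markers and set beside Actc1 after its values were seen, stood at 798 to 3532 FPKM in the 5 cells and at 3887 FPKM in HL1cm-PC. The ratio of Actc1 to Acta2 was 0.844 to 1.03 in 4 cells, 0.502 in HL1cm4 and 0.468 in HL1cm-PC, a log2 difference of -0.26 ± 0.42 (SD, 5 cells). Unlike Actc1, Acta2 was also high in mMSCs, with a median of 554 FPKM and up to 2222 FPKM.

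Myh6 had the lowest mean level of the 8 contractile genes of the set, although Tnnc1 was lower in HL1cm3 and HL1cm-PC, and Myh7 was lower than Myh6 in every HL1cm library. Myh6 encodes the alpha myosin heavy chain, the main form in the atrium and in the adult mouse ventricle, and lies on chromosome 14 at 54941921 to 54968017. It stood at 180 FPKM in HL1cm1, 78.7 in HL1cm2, 107 in HL1cm3, 262 in HL1cm4, 45.5 in HL1cm5 and 378 in HL1cm-PC. HL1cm-PC was above every single cell. Myh7, the beta form of the fetal ventricle and of slow skeletal muscle, is separated from Myh6 by 2666 bases on the same chromosome. It was above 0 in HL1cm1 alone, at 4.66 FPKM, where Myh6 was 38.6-fold higher, and it was listed at 0 in HL1cm-PC. The coding transcripts of Myh6 shared 15.8% of their stretches of 75 bases with those of Myh7, so that reads from these stretches could have been assigned to either gene.

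Between neighbours in the order of the mean levels, few differences exceeded the spread between cells. The mean log2 FPKM over the 5 cells was 15.03 ± 0.46 (SD) for Myl7, 11.55 ± 0.83 for Tnni3, 11.39 ± 0.84 for Tnnt2, 11.05 ± 0.63 for Myl4, 10.76 ± 0.59 for Myl1 and 10.53 ± 0.75 for Actc1. These were followed by Tnnc1 at 7.37 ± 2.34, Myh6 at 6.81 ± 0.99 and Nppa at 4.27 ± 5.84. The within-cell difference exceeded 1 SD between Myl7 and Tnni3 and between Actc1 and Tnnc1, at 3.16 ± 2.31, and was in 1 direction in 5 of 5 cells for both. The genes from Tnni3 to Actc1 formed a band in which no neighbours differed beyond the spread, and neither Tnnc1 and Myh6 nor Myh6 and Nppa did. The median SD was 0.79 over the 8 genes at 1 FPKM or more in all 5 cells, against 1.00 over all 3249 such genes and 0.75 over the 913 of them with a mean of 100 FPKM or more. HL1cm5 was the lowest cell for 5 of the 8 genes and HL1cm3 for the other 3, while the highest cell was HL1cm4 for 3, HL1cm1 for 2, HL1cm2 for 2 and HL1cm3 for 1. These places are by FPKM as deposited, depend on library scaling, and were not recounted under another scaling. HL1cm5 also had the lowest Gapdh level of the 5 cells, 190 FPKM against 236 to 395. Genes shorter than 200 bases held 73.0% of all FPKM in HL1cm5, the largest share of the 5 cells. The part of either in these values was not tested.

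The natriuretic peptide genes were not uniform in the line. Nppa, which encodes the atrial natriuretic peptide, lies on chromosome 4 at 148000722 to 148002074, 13516 bases from Nppb with no other coding gene between them. Nppa stood at 1603 FPKM in HL1cm1 and 1641 FPKM in HL1cm4, was listed at 0 in HL1cm2, HL1cm3 and HL1cm5, and stood at 367 FPKM in HL1cm-PC. The cells thus held either a level near that of Actc1 or none that was recorded. The smallest value expected for a gene of the length of Nppa was 3.81 to 5.65 FPKM in the 3 cells listed at 0. Of the 9 genes of the set that reached 100 FPKM in at least 1 HL1cm, Nppa was the only one listed at 0 in 3 or more of them, against 50 of 1740 genes (2.87%). HL1cm1 and HL1cm4 were also the cells of highest Tnnc1 and Myh6. Nkx2-5 was above 0 in the same cells, at 12.9 FPKM in HL1cm1 and 66.8 FPKM in HL1cm4, and listed at 0 in the other 3. So were the endothelial marker Kdr, at 13.8 and 6.31 FPKM, and the smooth muscle marker Smtn, at 16.7 and 30.4 FPKM. The share of all genes with this pattern was not counted, and a link to Nppa was not tested. Nkx2-5 encodes a cardiac transcription factor and stood at 46.7 FPKM in HL1cm-PC. Nppb, which encodes the brain natriuretic peptide, was listed at 0 in all 5 cells and in all 16 mMSCs. It stood at 57.8 FPKM in HL1cm-PC, where Nppa was 6.34-fold higher.

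Genes that process or receive these peptides were few and low. Of 8 such genes, 2 were 4-fold or more higher in HL1cm, against 8.17% of all genes. Corin, the protease that cleaves the precursor of the atrial peptide, stood at 3.16 FPKM in HL1cm1, was listed at 0 in HL1cm2, and stood at 20.5 in HL1cm3, 70.4 in HL1cm4, 20.4 in HL1cm5 and 31.4 in HL1cm-PC. Npr3, the clearance receptor, stood at 40.2, 61.7, 2.12, 27.9 and 27.6 FPKM in HL1cm1 to HL1cm5 and at 19.8 in HL1cm-PC. Corin was thus above 0 in HL1cm3 and HL1cm5, where Nppa was listed at 0. Npr1, the signalling receptor of both cardiac peptides, was above 0 in 3 cells, with 8.82 FPKM at most. Furin, a protease of many precursors, was at 0 to 16.3 FPKM, and Npr2, the receptor of the C-type peptide, was at 1.55 FPKM in HL1cm2 and listed at 0 in the other 4. Nppc, Mme and Pcsk6, which encode the C-type peptide, the peptide-degrading enzyme neprilysin and a protease of the precursor family, were listed at 0 in all 6 HL1cm libraries.

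HL1cm-PC lay near the mean of the cells for most of the set. It was within the range of the 5 cells for 8 of the 10 genes, against 5643 of the 9881 genes that reached 1 FPKM in HL1cm-PC (57.1%), and above every cell for Myh6 and Nppb. On the log2 scale HL1cm-PC minus the mean FPKM of the cells was 0.07 for Tnnt2, 0.13 for Actc1, -0.18 for Tnni3, -0.42 for Myl4, -0.57 for Myl1, -0.77 for Tnnc1 and -0.82 for Nppa, and it was 1.49 for Myh6. For Myl7 HL1cm-PC stood at 34649 FPKM and the mean of the cells at 34715 FPKM. The median over the 10 genes was -0.09, and 0.37 once all libraries were scaled to an equal sum. In a bulk library fewer cells with a transcript and less of it per cell cannot be told apart. The counterparts Tnnt1, Tnnt3 and Tnnc2 were, like Nppb, above 0 in HL1cm-PC and in no single HL1cm.

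**Figure D4:**
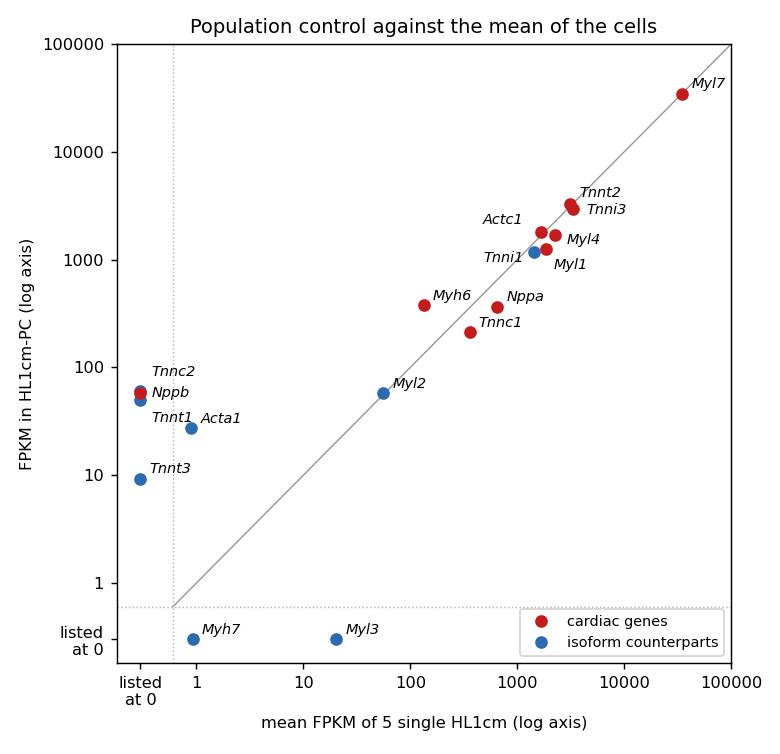
FPKM in HL1cm-PC (vertical log axis) against the mean FPKM of the 5 single HL1cm (horizontal log axis) for the 10 cardiac genes in red and their 8 isoform counterparts in blue, with a separate level on each axis for values listed at 0. The abundant genes lie near the line of equality, Myh6 lies above it, and Nppb, Tnnt1, Tnnt3 and Tnnc2 are above 0 in the population control alone.

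Other parts of the sarcomere were also recorded, most with a mean in HL1cm below the 134 FPKM of Myh6. Tpm1, Ankrd1, Smpx, Nexn and Myl12a had higher means than Myh6. Of 23 further sarcomere and Z-disc genes, 16 were 4-fold or more higher in HL1cm than in mMSCs and 11 were higher in every HL1cm than in every mMSC, against the same shares of all genes as above, with a median difference of 3.30. The 23 include the regulatory light chain gene Myl12a, taken up with the nonmuscle forms below, which was lower in HL1cm, with a log2 difference of -1.43. Among the thick filament and M-band genes, the giant spring protein gene Ttn stood at 8.43 to 33.1 FPKM in the cells, the myosin-binding protein gene Mybpc3 at 3.41 to 52.4 and Myom1 at 2.66 to 34.4, each at 0.49 FPKM or less in every mMSC. Myom2 was listed at 0 in all 5 cells. Mylk3, the cardiac kinase of the regulatory light chain, reached 59.3 FPKM in HL1cm4 and was listed at 0 in HL1cm3. Of the Z-disc genes, Actn2, which encodes the actin cross-linker, stood at 12.3 to 91.2 FPKM, Ldb3 at 22.6 to 73.2, Csrp3 at 24.4 to 65.0 and the intermediate filament gene Des at 38.6 to 131. Tcap, the cap of titin, was above 0 in HL1cm3 alone, at 12.8 FPKM, and stood at 74.1 FPKM in HL1cm-PC. Myoz2 was above 0 in 3 cells, up to 45.6 FPKM, and Xirp1 in 3, up to 50.8 FPKM. Nebl reached 10.2 FPKM and Pdlim5 120 FPKM.

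The further genes with the highest levels in single cells that were near 0 in mMSCs were Smpx and Ankrd1. Smpx, a small muscle protein gene, stood at 1608 FPKM in HL1cm1, 868 in HL1cm2, 166 in HL1cm3, 760 in HL1cm4, 434 in HL1cm5 and 458 in HL1cm-PC, and was listed at 0 in every mMSC. Ankrd1, which encodes a titin-associated protein known to respond to stretch, was the more variable, at 111 FPKM in HL1cm1, 3498 in HL1cm2, 376 in HL1cm3, 937 in HL1cm4, 618 in HL1cm5 and 1837 in HL1cm-PC. HL1cm2 was the highest cell for both Ankrd1 and Actc1. The thin filament genes Tmod1, at 12.9 to 138 FPKM, and Nexn, at 63.0 to 514 FPKM, were lowest in HL1cm5 and HL1cm3. Nexn was also above 0 in 13 mMSCs, with a median of 17.9 FPKM over all mMSCs and at most 82.3 FPKM. Lmod2, which nucleates actin filaments, was above 0 in 4 cells, up to 52.4 FPKM, and the muscle ubiquitin ligase gene Trim63 stood at 6.14 to 86.4 FPKM. Tropomyosin genes were also high in mMSCs. Tpm1 stood at 579 to 1794 FPKM in HL1cm and at a median of 472 FPKM in mMSCs, and Tpm2 at 16.7 to 72.3 FPKM against a median of 49.1 FPKM.

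**Figure D5:**
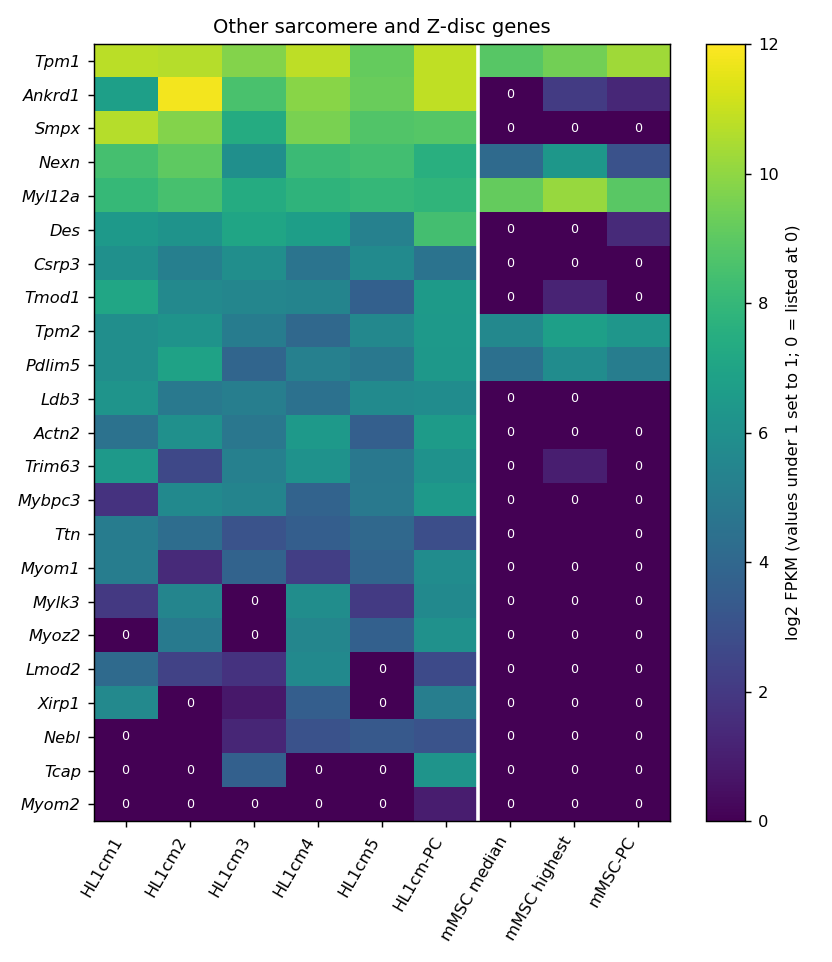
Log2 FPKM (colour, values under 1 FPKM set to 1) of 23 further sarcomere and Z-disc genes in the 5 HL1cm, HL1cm-PC, the median and highest of 16 mMSCs, and mMSC-PC, with 0 written where a gene was listed at 0. Most rows are coloured in the HL1cm libraries and dark in mMSCs, while Tpm1, Tpm2, Myl12a, Pdlim5 and Nexn also have a median above 0 in mMSCs.

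The nonmuscle forms of the same proteins went in both directions. Of 9 nonmuscle genes, 3 were 4-fold or more lower in HL1cm, against 1039 of 13543 genes (7.67%), which were Myh9 with a log2 difference of -3.98, Tpm4 with -3.93 and the cytoplasmic actin gene Actb with -2.23. Myl9 and Myl12b, regulatory light chains of smooth muscle and nonmuscle myosin, were 4-fold or more higher (8.17% of all genes), with 3.77 and 2.10, and the median of the 9 was -0.71. Actb stood at a mean of 2192 FPKM in HL1cm, in the range of Actc1, and at a median of 9871 FPKM in mMSCs. Myl6, the nonmuscle essential light chain gene, stood at a mean of 1126 FPKM in HL1cm. The regulatory light chain gene Myl12a, counted with the further sarcomere genes and not among these 9, stood at 254 FPKM and differed by -1.43. Actg1, the other cytoplasmic actin gene, differed by -1.06, Tpm3 by -0.43 and the nonmuscle heavy chain gene Myh10 by 1.08, all short of 4-fold.

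The genes outside these lists with the pattern most like the mean of the set were found by Pearson's r over the 23 libraries among 11483 genes that reached 1 FPKM in 3 libraries or more. The 10 nearest were Klhl13, 2310046A06Rik, Tbx20, Cox6a2, Ckmt2, F11r, Cav3, Prkaa2, Casq2 and Pard3b, with r from 0.992 to 0.990. The libraries share 2 cell types, r does not separate the step between these from variation within them, and it is given as a description. Cox6a2 and Ckmt2, muscle forms of a respiratory chain subunit and of mitochondrial creatine kinase, stood at 86.8 to 415 and 62.1 to 512 FPKM in the HL1cm. Cav3, the muscle caveolin gene, stood at 106 to 286 FPKM, Casq2, which encodes the calcium buffer of the cardiac sarcoplasmic reticulum, at 22.5 to 266 FPKM, and the cardiac transcription factor gene Tbx20 at 17.7 to 47.5 FPKM. All but Tbx20 and Pard3b were listed at 0 in every mMSC.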

How the data were processed

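RNA was measured in 16 single mMSCs, 5 single HL1cm and 1 population control of each, using SMARTer cDNA, Nextera XT libraries and paired sequencing at a read length of 75 bases. TopHat2 2.0.12 (alignment to mm10) and Cufflinks 2.2.1 (abundance) were run by the authors at default settings, and a table of FPKM for 23284 genes and 23 libraries was deposited by them. Multiply mapped reads between related genes and the estimated lengths of short genes can move such values. The values were used as deposited. For log2 values, anything under 1 FPKM was raised to 1, and a gene was kept if any cell compared reached 1 FPKM. A 4-fold difference is a log2 difference of 2. No count model was fitted and no p-value is given, since each cell type counted as 1 sample. Isoform ratios were taken within a library, where both genes were above 0. The smallest values were taken from 4097 genes with a single coding transcript of 1500 bases or more in GENCODE M21, and the expected smallest value of a gene used its longest coding transcript. Sequences and positions come from RefSeq GRCm38.p6. The 10 genes and all lists were chosen with earlier results of these data known. Genes named are these 10, their counterparts, the lists of further sarcomere, nonmuscle and natriuretic genes, cell type markers and the 10 genes of most similar pattern, and others are marked. Scripts ran in Python 3.11.15 (numpy 2.4.6, pandas 2.3.3, matplotlib 3.10.9) and were tested on simulated data. Other settings tried concerned the pseudocount, the 1 FPKM limit, library scaling, gene filtering and leaving out cells. Of the lists, 2 genes are not reported here.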

Additional observations from a re-analysis of the deposited data

Results flagged for a closer look

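Of 12 groups of 5 HL1cm values tested, the 10 levels and the ratios of Myl4 to Myl1 and of Tnni3 to Tnni1, 2 held a cell far from the others by Dixon's criterion, which chance alone meets in about 5% of groups. Nppb, listed at 0 in all 5 cells, had no range and could not be flagged. Nppa was above 0 in 2 cells only, and the 2 flagged groups share the Tnni3 values. The count of 2 therefore cannot be set against the 5%. Tnni3, the adult cardiac troponin I gene, was low in HL1cm5, at a log2 FPKM of 10.11 (1104 FPKM), with a gap of 0.738 of the whole range to the next cell. The level is FPKM as deposited, and this flag was not recomputed under another library scaling. Genes shorter than 200 bases held 73.0% of all FPKM in HL1cm5, the largest share of the 5 cells. The log2 ratio of Tnni3 to Tnni1 was high in HL1cm2, at 4.485, with a gap of 0.812 of the range, where Tnni1 stood at 193 FPKM and Tnni3 at 4326 FPKM.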

How the results depend on the processing

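No paired analysis was possible because no test was run and replicate numbers only name cells. Of the values that answer a comparison, 131 recomputed values stayed within the spread between cells (counts within 1.5 times) and 11 moved. With values under 10 FPKM set to 10, the median difference between HL1cm and mMSCs over the 10 genes was 7.32, that between the population controls 7.18, the genes 4-fold or more higher in HL1cm numbered 246, and the log2 ratios of Myh6 to Myh7 and of Actc1 to Acta1 were 4.17 and 7.13. With a limit of 0.1 FPKM the medians were 12.30 and 12.75 and the count was 2186. The limit sets these values, since most of the genes are listed at 0 in mMSCs. On the log2(FPKM + 1) scale these ratios were 4.998 and 7.99. With every library rescaled to 1 sum (TPM scale), the median SD over the genes was 1.27 against 0.79, and the median of HL1cm-PC minus the cells changed sign, from -0.09 to 0.37. The cause was not tested. No other recomputed value of a comparison, level or ratio changed sign (Nppb, listed at 0 in every cell, takes the limit itself), while the share of higher genes among those 4-fold apart fell from 51.6% to 41.4%. A rescaling over genes of 200 bases or more, added after the data had been seen, gave 1223 genes higher and 1228 lower, and division by Gapdh 928 and 1263. Without each HL1cm in turn, the median difference was 9.75 to 10.06, the genes 4-fold higher 1108 to 1259, the genes above every mMSC 237 to 287, the median SD 0.62 to 0.88, and the median of HL1cm-PC minus the cells -0.26 to -0.0013. The log2 ratios were 8.94 to 9.47 for Myl7 to Myl2, 0.15 to 0.44 for Myl4 to Myl1 and 0.76 to 1.79 for Tnni3 to Tnni1. With 5 cells of unknown culture, no value extends to other HL-1 cultures, and the depth behind low values is unknown.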

Other observations

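The cardiac transcription factors of the marker list were low in comparison with the contractile genes. Gata4 stood at 49.2, 36.9, 9.79, 83.6 and 12.4 FPKM in HL1cm1 to HL1cm5, and Tbx5 at 86.7, 43.1, 0, 33.8 and 32.3 FPKM. Mef2c was listed at 0 in HL1cm1 and was above 0 in the other 4 cells, with 3.89 FPKM in the lowest. Genes of the dividing cell were present beside the contractile genes, with Mki67, Top2a, Cdk1, Ccnb1 and Ccna2 all above 0 in all 5 HL1cm. Their summed level was 85.1 FPKM in the lowest cell and 1006 FPKM in the highest, against 4.87 to 486 FPKM in mMSCs. HL1cm2 was the cell of lowest Mki67, at 13.1 FPKM, and of lowest Top2a, at 3.46 FPKM. Among smooth muscle markers, Tagln stood at 18.4 to 790 FPKM in HL1cm and Myh11 was listed at 0 in all 6 HL1cm libraries.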
